A study of Sus scrofa with 24 samples.

Results

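The genes described here encode the subunits of the AMPA and NMDA receptors, the ion channels that carry most fast excitatory transmission in the hippocampus. They are the 10 genes GRIA1, GRIA2, GRIA3, GRIA4, GRIN1, GRIN2A, GRIN2B, GRIN2C, GRIN2D and GRIN3A, chosen by name and found by their Entrez identifiers among 38882 genes in the count tables. All 10 matched 1 identifier each, and all 10 passed the filter on low counts.

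Hippocampal RNA came from 24 piglets killed at 14 days of age, all of the cross between PIC Camborough dams and PIC 359 sires. The design was a factorial of size and diet, and each of its 4 groups (SGA HF, SGA CON, AGA HF, AGA CON) held 6 piglets. AGA piglets had a birth weight appropriate for gestational age, SGA piglets were small for gestational age, CON piglets received a control formula, and HF piglets received a formula with hydrolyzed fat. Each SGA piglet was paired with a sex-matched AGA littermate fed the same formula. There were thus 12 littermate pairs, called litters here, 6 in each of 2 cohorts, of which 6 were male. The study does not say whether any pairs shared a sow, and the tests over litters below take the pairs as independent. Delivery was natural and at term, so the size comparison is between littermates that differed in birth weight, with no induced growth restriction.

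AMPA receptors are assembled from the GRIA subunits, and the GRIA2 subunit, once its RNA is edited, keeps calcium from passing through the channel. NMDA receptors need the GRIN1 subunit together with GRIN2 or GRIN3 subunits, pass calcium, and start the changes in synaptic strength that underlie learning. In the young forebrain GRIN2B is the main regulatory subunit, and GRIN2A is added during postnatal life, so that the ratio of GRIN2B to GRIN2A is commonly used to follow the maturation of these synapses.

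Library totals were between 6017336 and 9284355 counts, with a median of 7346072.5. Levels below are CPM, counts scaled to library size with TMM factors, and compare a gene across libraries but not with other genes. The depth left GRIN2A with 5 to 40 counts a library, GRIN2C with 11 to 51, GRIN2B with 29 to 75 and GRIN3A with 2 to 23, whereas GRIA2 had 458 to 1112 and GRIA3 had 351 to 596. Counting error alone would give a coefficient of variation of 37.4% for GRIN3A, 21.0% for GRIN2A and 3.51% for GRIA2, beside observed values of 47.8%, 30.9% and 16.5% over the 24 libraries. GRIA1 varied by 33.5% where counting error gave 7.31%, the widest spread beyond counting among the 4 AMPA genes. Of the 8 listed markers of hippocampal fields, all were in the tables, 7 passed the filter on low counts and none was at 0 in every library. Their summed level was 155 to 317 CPM, of which FIBCD1 averaged 159 in SGA and 121 in AGA. Listed markers of choroid plexus and cerebellar granule cells in the tables also had none at 0 in every library, so presence alone does not tell regions apart.

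In the Sscrofa10.2 annotation the 10 genes did not overlap the exons of another gene on the same strand. GRIA1 lies on chromosome 16 from 75191970 to 75275696, and its model holds 9 exon blocks with 1726 bases. GRIA2 is on chromosome 8 (48116966 to 48280583), GRIA3 on chromosome X (115591526 to 115873477) and GRIA4 on chromosome 9 (39465051 to 39839043). GRIN1 sits on an unplaced scaffold from 8050 to 19139, with 11 exon blocks of only 774 bases in all. GRIN2A is on chromosome 3 (33810701 to 33913481) with 7 blocks and 3100 bases, and GRIN2B on chromosome 5 (61874217 to 62275930) with 13 blocks and 8237 bases. GRIN2C is on chromosome 12 (6378936 to 6390260), GRIN2D on chromosome 6 (49570829 to 49613106) and GRIN3A on chromosome 1 (271873962 to 272030759). The models of GRIN1, GRIA1 and GRIN2A are too short to hold the whole coding sequence of a subunit, so their counts cover part of each transcript and their levels per length are uncertain. The study reports a reduced average RNA quality number for these samples and ascribes it to pre-spliced RNA. Its effect on the levels per length of the 10 genes was not tested.

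Per kilobase of exon, GRIN1 had the highest level, 58.6 ± 12.1 CPM per kb (SD, n = 24), followed by GRIA1 at 16.5 ± 5.53 and GRIA2 at 16.3 ± 2.69. GRIN1 was above GRIA1 in 24 of 24 libraries, but GRIA1 was above GRIA2 in only 12 of 24, so these neighbours did not differ beyond their spread. GRIA3 came next at 11.7 ± 1.43 CPM per kb, then GRIN2D at 5.09 ± 0.743 and GRIA4 at 1.75 ± 0.370, and each of GRIA2, GRIA3 and GRIN2D exceeded the next gene in 24 of 24 libraries. Among the low genes, GRIN2A had 1.21 ± 0.374, GRIN2C 0.960 ± 0.331 and GRIN2B 0.877 ± 0.209 CPM per kb. Their order was not stable, since GRIA4 exceeded GRIN2A in 19 of 24 libraries, GRIN2A exceeded GRIN2C in 17 and GRIN2C exceeded GRIN2B in 13. GRIN3A, a subunit that lowers calcium flow through NMDA receptors, was lowest in 24 of 24 libraries at 0.180 ± 0.0859 CPM per kb.

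None of the 10 genes passed the threshold of 0.4 on the adjusted p (edgeR, Benjamini-Hochberg FDR over all genes and contrasts) in any of the 7 contrasts, and the CPM ranges overlapped for all 10 genes in all 6 pairs of groups, where 1.99% of all genes tested had a pair of groups that did not overlap. The plot of CPM by group shows each piglet. In the size contrast 0 of 10 were called, where 0.478% of the 16326 genes tested were called, and 2 of 10 had an unadjusted p under 0.05, where 10.6% of all genes did. For diet the members' counts were 0 and 1 of 10, beside 0.159% and 7.1% of all genes. The interaction gave 0 and 1 of 10, beside 0.049% and 4.01%. Within CON piglets the comparison of SGA with AGA gave 0 and 1 of 10 (0.129% and 6.59% of all genes), and within HF piglets it gave 0 and 1 of 10 (0.288% and 8.02%). HF against CON gave 0 and 0 of 10 in AGA piglets (0.0674% and 6.09%) and 0 and 1 of 10 in SGA piglets (0.0919% and 5.16%). Limma voom and DESeq2 also called 0 of 10 in each of the 7 contrasts. Precision differed widely between the genes, with standard errors of the size difference from 0.05 for GRIA3 to 0.29 for GRIN3A on the log2 scale.

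**Figure D1:**
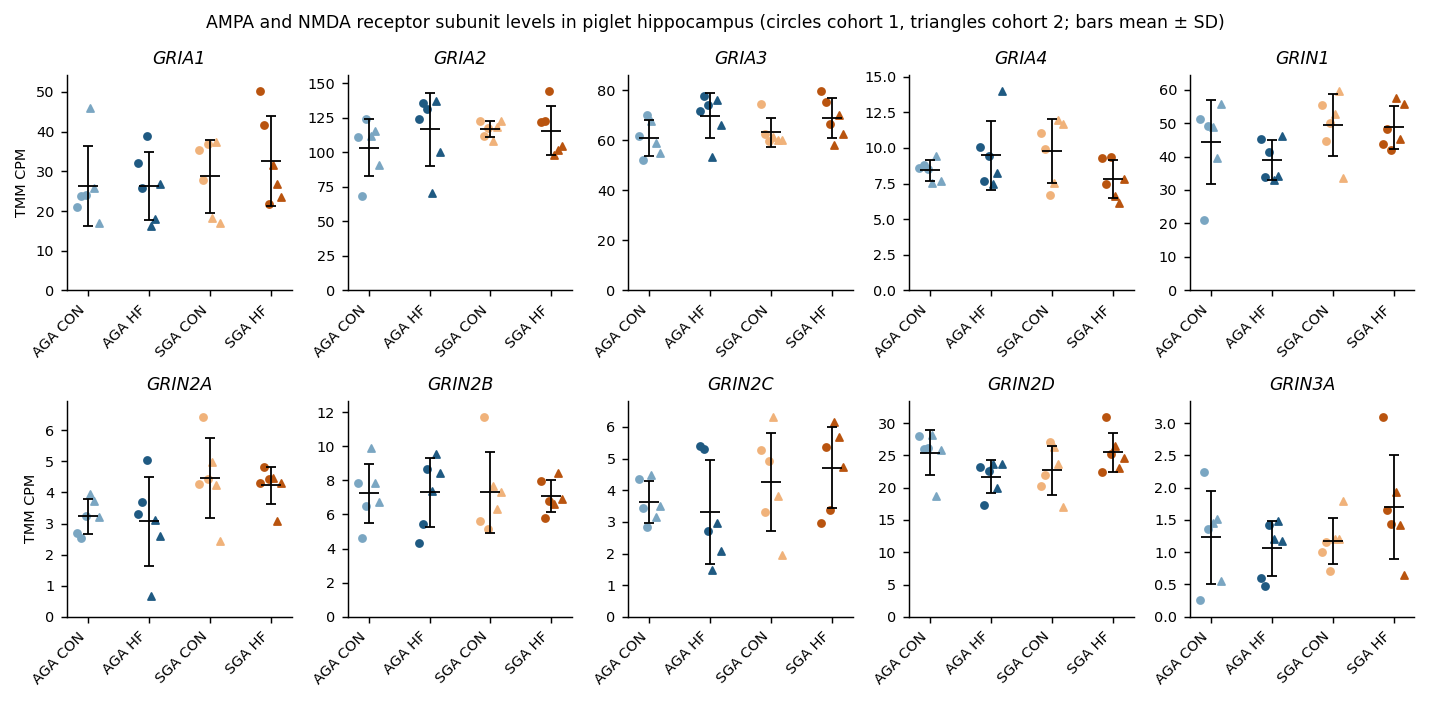
TMM CPM of the 10 subunit genes (vertical axes from 0) in the 4 groups, 1 point a piglet, with cohort 1 as circles and cohort 2 as triangles and bars for mean ± SD of 6 piglets. The groups overlap in every panel, and the AGA HF piglet with 0.669 CPM of GRIN2A lies apart.

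None of the 4 AMPA receptor genes was called for size by edgeR, and none had an unadjusted p under 0.05. GRIA2, the subunit that sets calcium permeability, ranged from 68.3 to 124 CPM (median 112) in AGA CON, from 70.8 to 138 (median 128) in AGA HF, from 108 to 123 (median 117.9) in SGA CON and from 97.8 to 145 (median 113) in SGA HF. The 2 lowest values were both in AGA piglets, and SGA CON had the narrowest range. The size difference in GRIA2 was 0.02 on the log2 scale (SE 0.05, edgeR adjusted p = 0.962), with SGA higher in 7 of 12 littermate pairs.

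GRIA1, which is the partner of GRIA2 in most receptors of hippocampal pyramidal cells, was the most variable AMPA gene. Its level ranged from 17.1 to 45.9 CPM (median 23.98) in AGA CON, from 16.3 to 39.0 (median 26.3) in AGA HF, from 16.9 to 37.3 (median 31.5) in SGA CON and from 21.7 to 50.3 (median 29.2) in SGA HF. SGA piglets had the higher value in 8 of 12 litters, with differences between -1.33 and 0.95 on the log2 scale. The fit with 5 surrogate variables gave a size difference of -0.02 (SE 0.11, adjusted p = 0.985), whereas a fit with litter as a block gave 0.22 (adjusted p = 0.793) and a fit with sex alone gave 0.19. The direction for GRIA1 differed between fits, and no fit called it.

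GRIA3 had 52.3 to 70.1 CPM (median 60.3) in AGA CON, 53.3 to 77.6 (median 72.9) in AGA HF, 60.0 to 74.7 (median 60.8) in SGA CON and 58.2 to 80.0 (median 68.4) in SGA HF. The HF median was above the CON median at both sizes, although the ranges overlapped. The diet difference in this AMPA subunit was 0.13 on the log2 scale, or 9.18% (SE 0.05, unadjusted p = 0.0189, adjusted p = 0.645). Fits of 1 cohort alone, here and below, held the groups and sex but no surrogate variables. They gave a diet difference of 0.23 in cohort 1 (adjusted p = 0.972) and 0.07 in cohort 2 (adjusted p = 0.949). In the fit of both cohorts the size difference in GRIA3 was -0.03 (SE 0.05, adjusted p = 0.938), with SGA higher in 6 of 12 litters.

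GRIA4, a subunit of fast-gating AMPA receptors found in interneurons and in early postnatal neurons, had littermate differences that averaged above 0 on CON and below 0 on HF. It ranged from 7.51 to 9.47 CPM (median 8.56) in AGA CON and from 6.67 to 12.0 (median 10.5) in SGA CON, but from 7.50 to 14.0 (median 8.83) in AGA HF and from 6.16 to 9.37 (median 7.64) in SGA HF. On the HF formula the SGA piglet was the lower one in 6 of 6 litters, and on the CON formula it was the higher one in 5 of 6. Some of these differences were close to 0. They ran from -0.84 to -0.00815 on HF and from -0.36 to 0.60 on CON, where litter 4 differed by 0.0023. Counting error alone would give GRIA4, with 48 to 110 counts a library, a coefficient of variation of 12.6%. The signs of the smallest differences are therefore uncertain. The interaction was -0.49 on the log2 scale (SE 0.21, unadjusted p = 0.0266, adjusted p = 0.673), so it was not called. In pairs of groups, SGA HF was below SGA CON by -0.42 (SE 0.15, unadjusted p = 0.0110, adjusted p = 0.592) and below AGA HF by -0.39 (SE 0.15, unadjusted p = 0.0174, adjusted p = 0.642). In cohort 2 alone the interaction was -0.90 (adjusted p = 0.868) and in cohort 1 alone -0.14 (adjusted p = 0.989), a difference between cohorts that was not tested. Over both diets the size difference in GRIA4 was -0.14 (SE 0.11, adjusted p = 0.861).

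**Figure D2:**
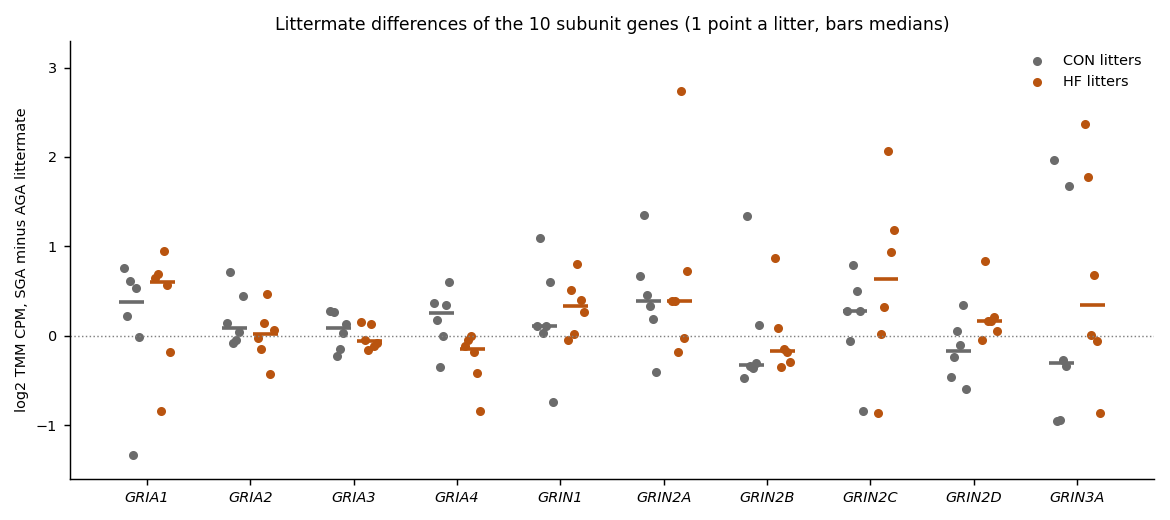
Difference in log2 TMM CPM between the SGA and the AGA piglet of each litter (vertical axis), 1 point a litter, for the 10 genes, with CON litters in grey and HF litters in orange and bars at the medians of 6 litters. GRIA4 lies below 0 in all 6 HF litters, in the closest at -0.00815, and GRIN2A lies above 0 in 9 of 12 litters.

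In the NMDA receptor genes the largest size difference for its error was that of GRIN2A. Its level ranged from 2.53 to 3.96 CPM (median 3.23) in AGA CON, from 0.669 to 5.04 (median 3.21) in AGA HF, from 2.44 to 6.44 (median 4.36) in SGA CON and from 3.08 to 4.82 (median 4.37) in SGA HF. Both SGA medians lay above both AGA medians, while the ranges overlapped. The size difference in GRIN2A was 0.40 on the log2 scale, or 31.6% higher in SGA (SE 0.17, unadjusted p = 0.0312, adjusted p = 0.684), and SGA was higher in 9 of 12 littermate pairs. In fits without surrogate variables it was 0.47 in cohort 1 alone, 0.51 in cohort 2 alone (adjusted p = 0.972 and 0.892) and 0.48 with litter as a block (adjusted p = 0.539). The AGA HF piglet of litter 4 on that diet had 5 counts of GRIN2A, and its littermate difference of 2.74 was the largest of the 12.

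GRIN1, without which no NMDA receptor reaches the membrane, was also higher in SGA piglets in most litters. It had 21.0 to 55.8 CPM (median 49.1) in AGA CON, 32.9 to 46.2 (median 37.8) in AGA HF, 33.4 to 59.7 (median 51.5) in SGA CON and 41.9 to 57.5 (median 46.7) in SGA HF. SGA piglets had more GRIN1 than their littermates in 10 of 12 litters, 5 of 6 on each diet. The size difference was 0.15, or 11.3% (SE 0.07, unadjusted p = 0.0462, adjusted p = 0.725), and within CON piglets it was 0.21 (SE 0.10, unadjusted p = 0.0442, adjusted p = 0.722). In fits without surrogate variables the size difference was 0.25 in cohort 1 alone and 0.24 in cohort 2 alone (adjusted p = 0.972 and 0.894). With litter as a block, also without surrogate variables, it was 0.25 over both cohorts (adjusted p = 0.589). The count for GRIN1 comes from 774 bases of exon only.

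GRIN2B did not follow GRIN2A. Its level was 4.62 to 9.89 CPM (median 7.27) in AGA CON, 4.35 to 9.54 (median 7.90) in AGA HF, 5.15 to 11.7 (median 6.81) in SGA CON and 5.78 to 8.41 (median 6.82) in SGA HF. SGA was lower in 8 of 12 litters, but 2 litters with large differences the other way left a size difference of 0.0059 on the log2 scale (SE 0.17, adjusted p = 0.999). The standard error leaves room for differences in GRIN2B of the size fitted for GRIN1.

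GRIN2C, a subunit best known from cerebellar granule cells and from astrocytes, had 2.85 to 4.48 CPM (median 3.46) in AGA CON, 1.47 to 5.39 (median 2.84) in AGA HF, 1.95 to 6.32 (median 4.37) in SGA CON and 2.96 to 6.15 (median 5.05) in SGA HF. SGA was higher in 9 of 12 litters. The size difference in GRIN2C was 0.32 (SE 0.18, unadjusted p = 0.0937, adjusted p = 0.787), which was 0.74 in cohort 2 alone and 0.07 in cohort 1 alone (adjusted p = 0.867 and 0.994).

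GRIN2D, which is expressed early in development and later mainly in interneurons, had 18.7 to 28.2 CPM (median 26.0) in AGA CON, 17.3 to 23.7 (median 22.9) in AGA HF, 17.0 to 27.2 (median 22.8) in SGA CON and 22.5 to 31.0 (median 24.9) in SGA HF. SGA piglets were higher in 5 of 6 HF litters and lower in 4 of 6 CON litters, and the size difference over both diets was 9.8e-05 (SE 0.09, adjusted p close to 1). GRIN3A had 0.257 to 2.24 CPM (median 1.40) in AGA CON, 0.481 to 1.48 (median 1.19) in AGA HF, 0.703 to 1.79 (median 1.18) in SGA CON and 0.644 to 3.10 (median 1.54) in SGA HF. With 2 to 23 counts a library, its size difference of 0.44 had an SE of 0.29 (adjusted p = 0.834), and SGA was higher in 6 of 12 litters, so no difference was detectable at this depth.

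Leaving out a single library changed calls in 1 case of 24. Without SGA HF replicate 3, GRIN2C was called for size at 0.61 (adjusted p = 0.365), GRIA3 for diet at 0.14 (adjusted p = 0.379) and GRIA4 for the interaction at -0.62 (adjusted p = 0.375). In the same fit GRIA4 and GRIN2C were called between SGA HF and AGA HF, at -0.52 and 0.92 (adjusted p = 0.320 and 0.338), and GRIA4 between SGA HF and SGA CON at -0.48 (adjusted p = 0.369). Without that library 4.4% of all genes tested were called for size (717, against 78 with all 24), 1.96% for diet, 1.52% for the interaction, 4.98% between SGA HF and AGA HF and 1.3% between SGA HF and SGA CON. Over the 24 fits with a library left out, the size difference stayed between 0.32 and 0.50 for GRIN2A and between 0.11 and 0.31 for GRIN1, with adjusted p from 0.471 to 0.816 and from 0.414 to 0.830.

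**Figure D3:**
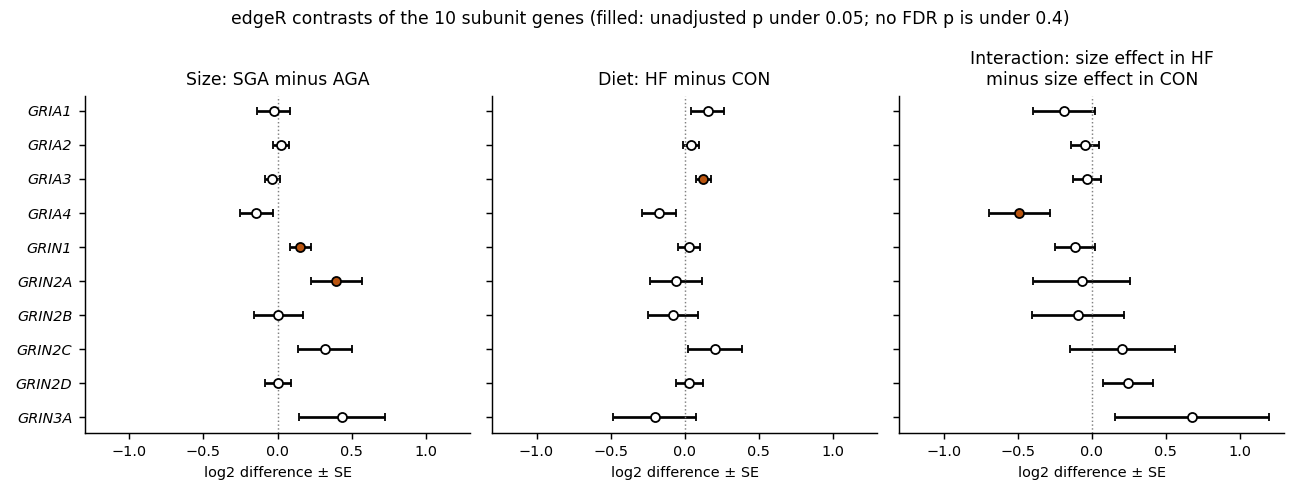
Log2 difference ± SE (horizontal axes) of the 10 genes in the size, diet and interaction contrasts of the edgeR fit, with filled points where the unadjusted p is under 0.05. The filled points are GRIN1 and GRIN2A for size, GRIA3 for diet and GRIA4 for the interaction, none of which had an adjusted p under 0.4.

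As a group, 7 of 10 genes had a size difference above 0, with a median of 0.015, beside a median of -0.0023 over all genes tested. For diet 6 of 10 were above 0 (median 0.030, all genes 0.0020), and apart from GRIA3 the differences lay between -0.20 and 0.21. For the interaction 3 of 10 were above 0 (median -0.057, all genes 0.0029).

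The ratio of GRIN2B to GRIN2A counts in a library is free of the scaling between libraries and was compared as 1 value a piglet. It ranged from 1.82 to 2.90 (median 2.09) in AGA CON, from 1.32 to 11.0 (median 2.38) in AGA HF, from 1.16 to 3.00 (median 1.52) in SGA CON and from 1.20 to 2.73 (median 1.56) in SGA HF. Both SGA medians were below both AGA medians, and the ranges overlapped. The value of 11.0 came from 55 counts of GRIN2B and 5 of GRIN2A, with an exact 95% interval of 4.44 to 35.2 that covers counting error only. The corresponding interval was 0.732 to 2.41 for the piglet with a ratio of 1.32, from 29 and 22 counts.

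SGA piglets had the lower ratio in 10 of 12 litters, and the mean littermate difference was -0.55 on the log2 scale (SE 0.26), which is a ratio 0.681 times that of the AGA littermates. A two-sided exact sign-flip test over the 12 litters gave p = 0.0366, and p = 0.0732 after Benjamini-Hochberg adjustment over the 4 comparisons made of this ratio. The adjusted p was thus above 0.05, a stricter level than the 0.4 used for calls of genes. SGA was lower in 5 of 6 litters on each diet, by -0.43 ± 0.60 on CON and -0.68 ± 1.19 on HF (SD). It was also lower in 5 of 6 litters of each cohort, by -0.32 ± 0.57 in cohort 1 (exact sign-flip p = 0.281) and -0.79 ± 1.16 in cohort 2 (exact p = 0.125), where the smallest p that 6 litters allow is 0.0312. Leaving out the HF litter of replicate 4, which holds the piglet with 5 GRIN2A counts, moved the difference to -0.34 (exact p = 0.0732). The exact p also passed 0.05 without HF litter 6 (0.0732) or without CON litter 1, 3, 4 or 5 (0.0732, 0.0674, 0.0654 and 0.0576), and the range over all 12 omissions was 0.0147 to 0.0732.

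**Figure D4:**
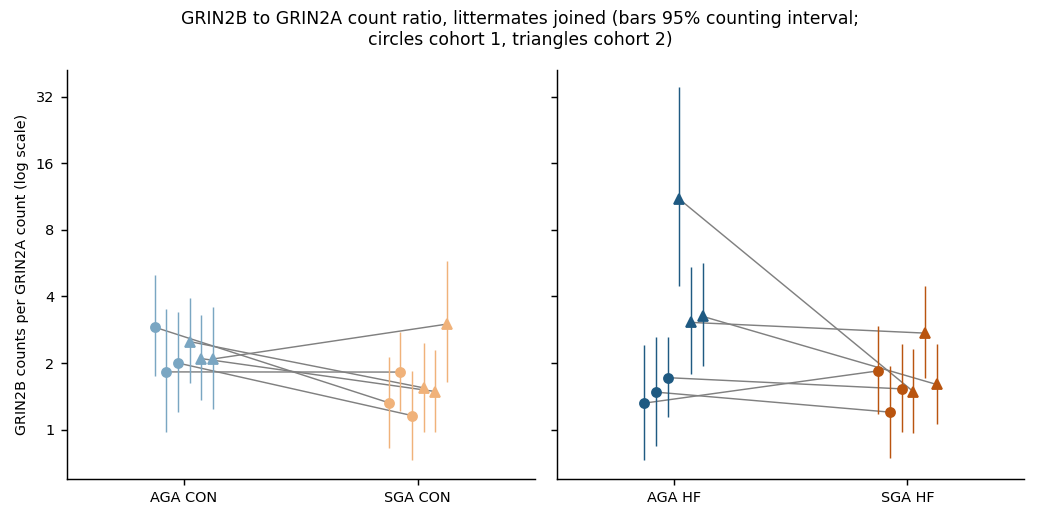
GRIN2B counts per GRIN2A count in each piglet (vertical log scale) for CON litters on the left and HF litters on the right, with littermates joined, 95% counting intervals as bars, cohort 1 as circles and cohort 2 as triangles. The line goes down from AGA to SGA in 5 of 6 litters on each diet, and most intervals overlap between littermates.

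No difference in the ratio was detectable between diets. The 6 HF litter means exceeded the 6 CON litter means by 0.15 on the log2 scale (SE 0.27, exact permutation p = 0.584, adjusted p = 0.721). The littermate difference in the ratio did not differ detectably between diets either (-0.24, SE 0.54, exact permutation p = 0.721, adjusted p = 0.721). These standard errors leave room for differences as large as the one fitted for size. The ratio did differ between the cohorts, each of which holds 3 litters of either diet. Its geometric mean was 1.62 in cohort 1 and 2.48 in cohort 2, a difference of 0.61 in litter means on the log2 scale (SE 0.19, exact permutation p = 0.00866, adjusted p = 0.0346), and it stayed between 0.47 and 0.71 with any 1 litter left out. GRIN2A averaged 4.10 ± 1.09 CPM in cohort 1 and 3.40 ± 1.16 in cohort 2 (SD, n = 12), and GRIN2B averaged 6.70 ± 2.08 and 7.75 ± 1.14. Cohort 1 held more male litters than cohort 2, and on residuals after sex the difference in the ratio was 0.58 (exact permutation p = 0.00866). The labels say only that the litters of a cohort were brought in together, and what else differed between the cohorts was not tested.

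Composition was described as the share of each subunit in the summed CPM per kb. Of the AMPA genes, GRIA2 held 35.5 ± 4.71%, GRIA1 35.0 ± 6.80%, GRIA3 25.6 ± 2.73% and GRIA4 3.86 ± 0.954% (SD, n = 24). The share of GRIA4 was 3.14 ± 0.541% in SGA HF and 4.01 to 4.17% on average in the other groups. Of the 4 GRIN2 genes, GRIN2D held 62.6 ± 5.64%, GRIN2A 14.75 ± 3.91%, GRIN2C 11.7 ± 3.52% and GRIN2B 10.95 ± 2.88%. The mean share of GRIN2A was 12.8 ± 2.68% in AGA CON, 13.3 ± 5.76% in AGA HF, 17.3 ± 3.19% in SGA CON and 15.6 ± 1.97% in SGA HF. The shares of GRIA1 and GRIN2A rest on incomplete gene models and enter the sum of their pool, so the shares in both pools compare groups rather than subunits.

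**Figure D5:**
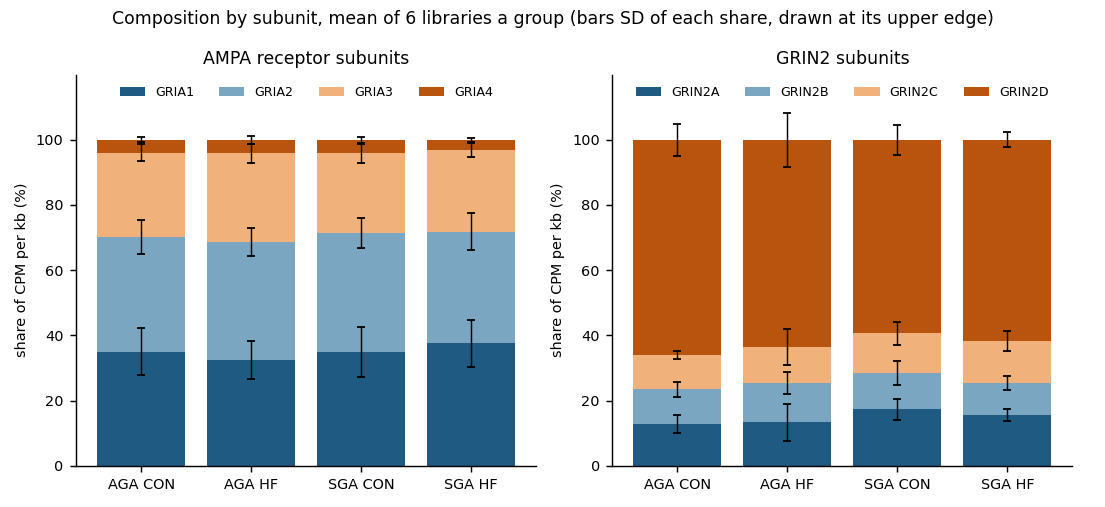
Mean share of each subunit in the summed CPM per kb of exon (vertical axes, percent) of the 4 AMPA genes on the left and the 4 GRIN2 genes on the right, with 6 piglets a group and bars for the SD of each share. The mean share of GRIA4 is 3.14% in SGA HF and 4.01 to 4.17% in the other groups, and that of GRIN2A runs from 12.8% in AGA CON to 17.3% in SGA CON.

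Across the 24 libraries, after each group was centred on its mean, the AMPA genes GRIA2 and GRIA3 had the highest correlation of the 45 pairs of genes, with r = 0.77. GRIA2 and GRIN2A followed with r = 0.63, and 6 pairs had r over 0.5. GRIN2A and GRIN2B were nearly unrelated (r = 0.11), and GRIN1 and GRIN3A had the lowest value (r = -0.50). These correlations are descriptions over piglets that share libraries, litters and cohorts, and GRIN3A adds counting noise.

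The genes most like GRIA2 over the 24 libraries were PLPPR4 (r = 0.92), MAP2, which encodes a dendritic microtubule protein (r = 0.91), and JAZF1 (r = 0.91). Those most like GRIA1 were TRAK1, an adaptor for transport of mitochondria (r = 0.95), KALRN, an exchange factor of dendritic spines (r = 0.90), and DISP2 (r = 0.90). GRIN1 was most like MAGED1 (r = 0.91), PLD3 (r = 0.88) and CNTNAP1 (r = 0.87). GRIN2A was most like DLG3, a scaffold protein that binds NMDA receptors (r = 0.83), IRAK1BP1 (r = 0.82) and SLC25A16 (r = 0.79). GRIN2B had weaker likeness, with CDC123 (r = 0.71), SARDH (r = 0.68) and UBE2L3 (r = 0.64).

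AMPA receptors carry auxiliary subunits that control their delivery and gating, and 11 of the 13 on the list were tested. By edgeR none was called for size, 3 of 11 had an unadjusted p under 0.05 (10.6% of all genes), all higher in SGA, and the median difference was 0.075 (all genes -0.0023). SHISA6, which holds AMPA receptors at the synapse, averaged 214 ± 29.1 CPM in SGA and 181 ± 48.6 in AGA (SD, n = 12), a difference of 0.26 on the log2 scale (SE 0.07, adjusted p = 0.428). With litter as a block it was called at 0.27 (adjusted p = 0.388), in a fit that called 2.57% of all genes for size. CACNG7, a transmembrane regulator of AMPA receptors, differed by 0.15 (SE 0.04, adjusted p = 0.471). DESeq2 called 2 of 11 higher in SGA, SHISA6 and CACNG7 (adjusted p = 0.136 and 0.259), and limma voom called 0, beside 1.29% and 0.325% of all genes. EdgeR called SHISA6 without AGA CON replicate 2, 3 or 4, AGA HF replicate 3, SGA CON replicate 4 or 6, or SGA HF replicate 2 or 3 (adjusted p down to 0.243), and CACNG7 without AGA CON replicate 2, SGA CON replicate 1, 4 or 6, or SGA HF replicate 2 (down to 0.177). Of all genes, the fits that called SHISA6 called from 0.331% to 4.4% for size. Those that called CACNG7 called from 0.902% to 2.51%, and the share was 0.478% with all 24 libraries. For diet none of 11 was called by edgeR and 2 had an unadjusted p under 0.05 (7.1% of all genes), SHISA6 at -0.26 (SE 0.07, adjusted p = 0.428) and CACNG7 at -0.10 (SE 0.04, adjusted p = 0.690), with both values below 0 for HF minus CON. DESeq2 called SHISA6 lower on HF (-0.27, adjusted p = 0.132, with 0.539% of all genes called), limma voom called 0 of 11, and with litter as a correlation the adjusted p of SHISA6 was 0.9995. EdgeR called this difference without AGA CON replicate 2 or 3, AGA HF replicate 3, SGA CON replicate 4 or 6, or SGA HF replicate 2 or 3 (adjusted p down to 0.142). These fits called from 0.141% to 2.55% of all genes for diet, beside 0.159% with all 24 libraries.

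Of the genes for AMPA receptor trafficking and editing, 11 of 12 were tested, edgeR and limma voom called none for size or diet, and 10 of 11 had a size difference above 0 with a median of 0.10 (all genes -0.0023). NPTXR, the neuronal pentraxin receptor that gathers AMPA receptors, was the 1 gene of 11 with an unadjusted p under 0.05 for size (10.6% of all genes), at 0.19 (SE 0.05, adjusted p = 0.465). DESeq2 called it at 0.20 (adjusted p = 0.219), with 1.29% of all genes called. EdgeR called NPTXR without AGA CON replicate 2, AGA HF replicate 3 or 4, SGA CON replicate 4 or 6, or SGA HF replicate 2 or 3 (adjusted p down to 0.195). These fits called from 0.792% to 4.4% of all genes for size, beside 0.478% with all 24 libraries. For diet DESeq2 called none of 11 either. The differences of HF minus CON were 0.21 for PICK1, 0.20 for NPTX2, -0.13 for NPTXR and -0.15 for NPTX1 (edgeR adjusted p = 0.623, 0.683, 0.666 and 0.713). The value for NPTX2 was 0.0033 without AGA CON replicate 2, 0.033 without AGA HF replicate 2 and 0.035 in cohort 2 alone. PICK1 removes AMPA receptors from the surface, and NPTX1 and NPTX2 are pentraxins released at excitatory synapses.

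Of the partners of NMDA receptors 13 of 15 were tested, and edgeR called 1 for size (0.478% of all genes). CAMK2A, the kinase that NMDA receptors activate in excitatory neurons, averaged 3611 ± 292 CPM in SGA and 3345 ± 310 in AGA (SD, n = 12) and rose by 0.13 on the log2 scale (SE 0.03, adjusted p = 0.308). It is also 1 of the excitatory neuron markers below. CAMK2A was not called with litter as a block (0.10, adjusted p = 0.690), where PTPN5, a phosphatase that acts on NMDA receptor subunits, was called in its place (0.30, adjusted p = 0.324, with 2.57% of all genes called). The call of CAMK2A was also lost, at adjusted p up to 0.549, without AGA CON replicate 1, 4 or 5, AGA HF replicate 5 or 6, SGA CON replicate 1 or 5, or SGA HF replicate 4 or 5. Those fits called from 0.0307% to 0.902% of all genes for size. CAMK2A was also not called with sex only (adjusted p = 0.880), with cohort and sex (0.830) or with 1 CPM in 6 libraries (0.402). Of all genes, these settings called 0.0796%, 0.649% and 0.276% for size. Cohort 1 and cohort 2 alone did not call CAMK2A either (adjusted p = 0.987 and 0.892), and each called 0 of all genes for size. DESeq2 called CAMK2A and CAMK2B, and limma voom called CAMK2A, where the 2 tools called 1.29% and 0.325% of all genes for size. In all, 4 of 13 partners had an unadjusted p under 0.05 for size (10.6% of all genes), each higher in SGA. For diet edgeR, DESeq2 and limma voom called none, and PTPN5 was the 1 gene with an unadjusted p under 0.05 by edgeR (7.1% of all genes), at -0.12 for HF minus CON (SE 0.05, adjusted p = 0.715). For the interaction none of the 11 auxiliary, 11 trafficking and 13 partner genes was called by edgeR, DESeq2 or limma voom, and by edgeR 0, 0 and 1 of them had an unadjusted p under 0.05 (4.01% of all genes).

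The levels of cell type markers are given beside these results. The 7 excitatory neuron markers in the tables summed to 6496 to 10870 CPM in AGA CON, 7439 to 10910 in AGA HF, 9900 to 11830 in SGA CON and 9060 to 10910 in SGA HF. Of these 7, CAMK2A was called higher in SGA (0.478% of all genes were called), and SLC17A7 and NEUROD2 also had an unadjusted p under 0.05 (10.6% of all genes), at 0.14 and 0.16 on the log2 scale (adjusted p = 0.506 for both), with a median of 0.092 over the list. The 6 oligodendrocyte markers, genes of myelin-forming cells, had summed medians of 21010 and 21730 CPM in AGA CON and AGA HF and of 16020 and 17580 in SGA CON and SGA HF, with overlapping ranges. All 6 had a size difference below 0 with a median of -0.17, 0 of them were called in the fit with surrogate variables, and 3 were called lower in SGA with litter as a block, where 2.57% of all genes were called. That fit also called S100B, an astrocyte marker, and OLIG1, a marker of oligodendrocyte progenitors, lower in SGA (-0.17 for both, adjusted p = 0.383 and 0.325). It called FIBCD1, a hippocampal field marker, higher (0.45, adjusted p = 0.315). Members of these lists did not all go the same way. In that fit SLC1A3 of the astrocyte list was at 0.10 and CSPG4 of the progenitor list at 0.23 (adjusted p = 0.914 and 0.652). C1QL2 of the hippocampal field list was at -0.14 (adjusted p = 0.709). The summed markers of interneurons had group medians of 427 to 478 CPM, those of astrocytes 9656 to 11430, those of oligodendrocyte progenitors 963 to 1070, those of microglia 120 to 156 and those of endothelial and mural cells 232 to 257. Choroid plexus markers had medians of 37.5 to 61.5 CPM and cerebellar granule cell markers of 70.7 to 94.0, and no listed marker in the tables was at 0 in every library. With groups centred, GRIA2 had r = 0.64 with summed excitatory neuron markers and -0.65, -0.70 and -0.70 with those of astrocytes, oligodendrocyte progenitors and microglia. In the same order GRIA3 had 0.40, -0.49, -0.75 and -0.75, GRIN2A 0.27, -0.45, -0.57 and -0.47, and GRIN1 0.46, -0.35, -0.11 and -0.27. GRIN2B had 0.16, 0.040, 0.089 and 0.096. The other subunits did not share 1 direction with the excitatory neuron markers. GRIN2C had r = 0.39 with them, but GRIA1 had -0.17, GRIA4 -0.18, GRIN2D -0.355 and GRIN3A -0.48. These are descriptions only. The part of the marker levels in the values of GRIN2A, GRIN1 and the other subunits was not tested, and in bulk tissue fewer cells of a type cannot be told apart from less RNA per cell.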

How the data were processed

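The authors trimmed single-end stranded polyA reads with Trimmomatic (0.33), aligned them to Sscrofa10.2 with STAR (2.5.2a) and counted reads on the exons of Entrez genes by strand with featureCounts of Subread (1.5.0). They deposited raw counts per gene and library, which were used without change. Gene symbols came from a table of identifiers that matched 23036 of 38882 genes.

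Genes with at least 1 CPM in 3 libraries were kept (16326). The study's model (4 groups, sex and 5 surrogate variables from sva 3.50.0) was fitted with the quasi-likelihood test of edgeR (4.0.16), since the values are counts. Benjamini-Hochberg FDR p covered 7 contrasts together, with calls under 0.4 as in the study. The study reports more genes kept by its filter than here. It also reports more differentially expressed genes for size and for diet than the 78 and 26 called here. The cause of these gaps was not tested. Limma (3.58.1) and DESeq2 (1.42.0) were alternatives. Fits of 1 cohort held the groups and sex, and fits with a litter block held the groups and litters, both without surrogate variables. Ratios were compared by exact tests over litters (SciPy 1.17.1), with exact Clopper-Pearson intervals at 95%.

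SGA and AGA piglets with the same number and diet share a litter per the labels. Their deviations from group means correlated by 0.154 on average (0.0143 to 0.329, 12 pairs), and those of 24 pairs from other litters by 0.0315. Intervals and floors cover counting error only.

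All 10 members were named. Of the pathway lists, called genes were named and otherwise up to 2 a direction with the smallest unadjusted p under 0.05, and for 5 members the 3 most correlated genes. The members and lists were chosen with earlier results of these data known. No receptor sequences were used here.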

Additional observations from a re-analysis of the deposited data

Results flagged for a closer look

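Of 44 sets of 6 values (10 genes and the ratio in 4 groups), 6 held a piglet far from the other 5 by Dixon's criterion, where chance gives about 1 in 20 sets. GRIA1 was 45.9 CPM in AGA CON replicate 4, beside 17.1 to 25.8 in the other 5. GRIA3 was 74.7 CPM in SGA CON replicate 1, beside 60.0 to 62.7. GRIN2A was 3.08 CPM in SGA HF replicate 5, beside 4.30 to 4.82. GRIN2D was 18.7 CPM in AGA CON replicate 5, beside 25.9 to 28.2. The ratio of GRIN2B to GRIN2A was 11.0 in AGA HF replicate 4, beside 1.32 to 3.25, and 3.00 in SGA CON replicate 6, beside 1.16 to 1.82.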

How the results depend on the processing

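The count of subunit genes called stayed at 0 of 10 in the 7 contrasts under the 11 other settings that applied to each, and with 1 library left out it ranged from 0 to 2 for SGA HF against AGA HF and from 0 to 1 for size, diet, the interaction and SGA HF against SGA CON. With litter as a replicate block, 0 of 10 were called for size and for the interaction (2.57% and 0.276% of all genes), and the pairing changed no other call of a subunit gene. Directions turned for near-zero size differences. GRIA1 was 0.22 with the litter block, 0.19 with sex only, 0.19 with cohort and sex, 0.37 in cohort 1, 0.0265 in cohort 2 and -0.091 to 0.13 with a library left out. GRIA3 was 0.0079, 0.0068, 0.0057 and 0.031 in the first 4 of these. GRIN2B was -0.033, -0.040 and -0.032 in the first 3, -0.022 with voom, -0.22 in cohort 2 and -0.13 to 0.084 with a library left out. GRIN2D was -0.0024 with voom, -0.0052 with 1 CPM in 6 libraries, -0.00086 in cohort 2 and -0.050 to 0.079 with a library left out, and GRIA2 was -0.032 to 0.056. NPTX1 was 0.041 for diet in cohort 1. The cause was not tested. The log2 ratio of GRIN2B to GRIN2A kept its direction for size (-0.65 to -0.34 with a litter left out, -0.32 and -0.79 in cohorts 1 and 2, p = 0.0297 by permutation without the replicate block), but turned for diet (-0.23 in cohort 1, -0.033 to 0.29 with a litter left out) and for the interaction (0.65 in cohort 1, -0.48 to 0.20 with a litter left out). Over all genes the count called for size ranged from 0 to 1200 across settings and from 5 to 717 with a library left out. Depth limits GRIN2A, GRIN2C and GRIN3A most.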
